A study of Rattus norvegicus with 20 samples.

Results

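The proteins of the cytosolic ribosome were followed by their mRNA in the embryonic rat testis, on 20 Affymetrix arrays in 10 groups of 2. Members were the probe sets with 1 annotated gene symbol of the form Rpl or Rps plus a number, or Rplp0, Rplp1, Rplp2 or Rpsa. S6 kinases and Rpl39l1 were left out, and where a gene had several probe sets the one of highest mean signal stood for it. This gave 49 genes of the 14217 genes that had a probe set with 1 symbol. The ribosomal proteins together with the ribosomal RNAs form the small (Rps) and large (Rpl) subunits, which decode mRNA and join amino acids. They are made in near equal amounts, and most of their mRNAs begin with a stretch of pyrimidines, the terminal oligopyrimidine (TOP) tract, through which mTOR and the RNA-binding protein Larp1 set their translation and stability. Growing and dividing cells such as those of the embryonic gonad hold many ribosomes, so these mRNAs are among the most abundant of a cell.

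All tissue came from Sprague-Dawley embryos whose sex was read by a PCR for Sry. The in utero groups were testes of embryonic day 13, 14 or 16 (E13, E14, E16), whose dams had been injected daily from day 8 to day 14 with DMSO vehicle or with 100 mg/kg/day of vinclozolin, a fungicide with antiandrogenic metabolites. The E13 testes were therefore taken before the injections ended. In the culture groups, E13 gonads were kept for 3 days with the mesonephros attached, in a medium with insulin and transferrin, and the mesonephros was removed before RNA was taken. One gonad of an embryo received 50 µM vinclozolin in DMSO, or 0.5 µM of the antiandrogen flutamide in ethanol, and its partner the solvent alone. The labels name biological replicates but are silent on whether the 2 arrays of a group came from separate embryos, litters or pools. A p-value here is therefore set against array-to-array spread, which may in part be technical. These are whole testes, in which fewer cells of a type and less RNA per cell cannot be told apart. Whether the 3-day culture or the separate set of arrays lies behind a difference between cultured and uncultured testes cannot be told apart either.

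The arrays of a set shared 1 trimmed mean, which was 210.1 for in utero testes, 218.1 for the set cultured with DMSO or vinclozolin and 107.0 for the set cultured with ethanol or flutamide. Signals of the last 2 sets were therefore rescaled to the in utero mean wherever sets were compared. The tissue label was checked on the Sertoli cell hormone Amh, which was listed between 106.0 and 5795.5 on the in utero arrays, and on the Leydig cell gene Cyp17a1, between 1.7 and 35.2 at E13 and E14 and between 2657.0 and 7448.0 at E16. Only 2 of the 9 germ cell markers on the list were measured. The beta-actin 3'/5' signal ratio, a sign of RNA or cRNA length, ran from 1.73 to 3.47 on in utero arrays. In vehicle testes it was 1.98 and 3.47 at E13, 1.98 and 1.80 at E14, and 2.99 and 2.60 at E16. It ran from 2.67 to 3.90 in the set with DMSO or vinclozolin and from 9.08 to 11.06 in the set with ethanol or flutamide.

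The start regions of 12 genes that the results below turn on are shown because the pyrimidine run at the start is the feature by which the family is known to be regulated together. They are RefSeq promoter windows of the GRCr8 assembly, from 30 bases before the annotated start to 20 bases after it, and capitals mark an unbroken run of at least 7 C or T on the sense strand that overlaps the 20 bases around the start.
Rpl35a (chr11:81235002-81235051, minus strand): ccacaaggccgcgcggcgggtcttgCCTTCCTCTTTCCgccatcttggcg
Rpl21 (chr12:13386134-13386183, minus strand): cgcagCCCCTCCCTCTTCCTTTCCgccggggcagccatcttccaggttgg
Rpl4 (chr8:73566447-73566496, plus strand): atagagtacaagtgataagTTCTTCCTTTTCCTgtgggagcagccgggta
Rpl35 (chr3:43165902-43165951, minus strand): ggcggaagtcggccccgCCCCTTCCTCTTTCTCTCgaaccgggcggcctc
Rpl24 (chr11:58128386-58128435, minus strand): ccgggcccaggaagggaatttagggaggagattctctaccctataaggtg
Rps15a (chr1:181860265-181860314, minus strand): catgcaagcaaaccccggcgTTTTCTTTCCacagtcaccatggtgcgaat
Rplp0 (chr12:46718371-46718420, minus strand): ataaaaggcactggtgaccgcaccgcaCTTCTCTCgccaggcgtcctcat
Rpl14 (chr8:129163590-129163639, plus strand): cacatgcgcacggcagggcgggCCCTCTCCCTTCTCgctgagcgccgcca
Rpl11 (chr5:153560783-153560832, minus strand): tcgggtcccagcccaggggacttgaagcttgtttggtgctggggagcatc
Rpl39 (chrX:121195877-121195926, minus strand): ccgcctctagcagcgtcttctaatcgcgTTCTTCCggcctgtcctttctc
Rps4y2 (chr4:183000883-183000932, plus strand): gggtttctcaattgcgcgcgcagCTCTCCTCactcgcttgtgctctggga
Rps27l (chr8:76443628-76443677, plus strand): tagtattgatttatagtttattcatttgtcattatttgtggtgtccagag
Of the 49 genes, 47 were matched to a RefSeq gene and 40 had a promoter window. The run was present in 28 of the 40 (70.0%), against 4118 of the 21851 protein-coding promoters (18.8%). Among the 12 shown, the runs were 19 bases in Rpl21 and 18 in Rpl35, and none was found in Rpl24, Rpl11 or Rps27l. A missing run says only that these letters are not next to this annotated start. Over the whole window of 300 bases, on both strands, CCGGAAG (the letters of an Ets motif) was found in 22.5% of the members and 10.7% of all protein-coding promoters. AAGATGGC (a YY1 motif) was found in 10.0% and 3.67%, GGGCGG (the GC box) in 62.5% and 41.8%, and TATAAA in 15% and 13% of them. The reverse strands of the first pair hold pyrimidines and can overlap the run in part, and a match is a description of letters only.

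The members fell into 2 levels. A bright group of 38 genes, 26 of the large and 12 of the small subunit, had mean log2 values (signal plus 16) between 12.68 and 13.67, and each of them lay at or above the 99.37th percentile of its array on every array. The other 11 genes had means of 9.96 or less. The line at 12 was drawn after the values were seen. The dim genes were 5 paralogs (Rpl7l1, Rps4y2, Rps27l, Rpl26l1 and Rpl3l), 2 pseudogenes (Rpl37-ps2 and Rps4x-ps1) and 4 genes of the standard ribosome, Rpl39, Rpl28, Rps13 and Rpl30. For Rpl28, Rps13 and Rpl30 a brighter probe set exists whose annotation names several genes and which the rule left out, so their low signal belongs to the probe set. Rpl3l, the paralog of Rpl3 known from skeletal muscle and heart, and Rps4x-ps1 reached the 40th percentile on none of the 20 arrays and were not tested, which left 47 genes. A further 36 probe sets named several genes of the family, since ribosomal protein genes have many near-identical pseudogene copies. Rps27, Rps4x, Rps19, Rpl10 and Rpl22l1 were measured only by such probe sets. Brightness also depends on the probes, so the signals of different genes were not set against each other.

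**Figure D1:**
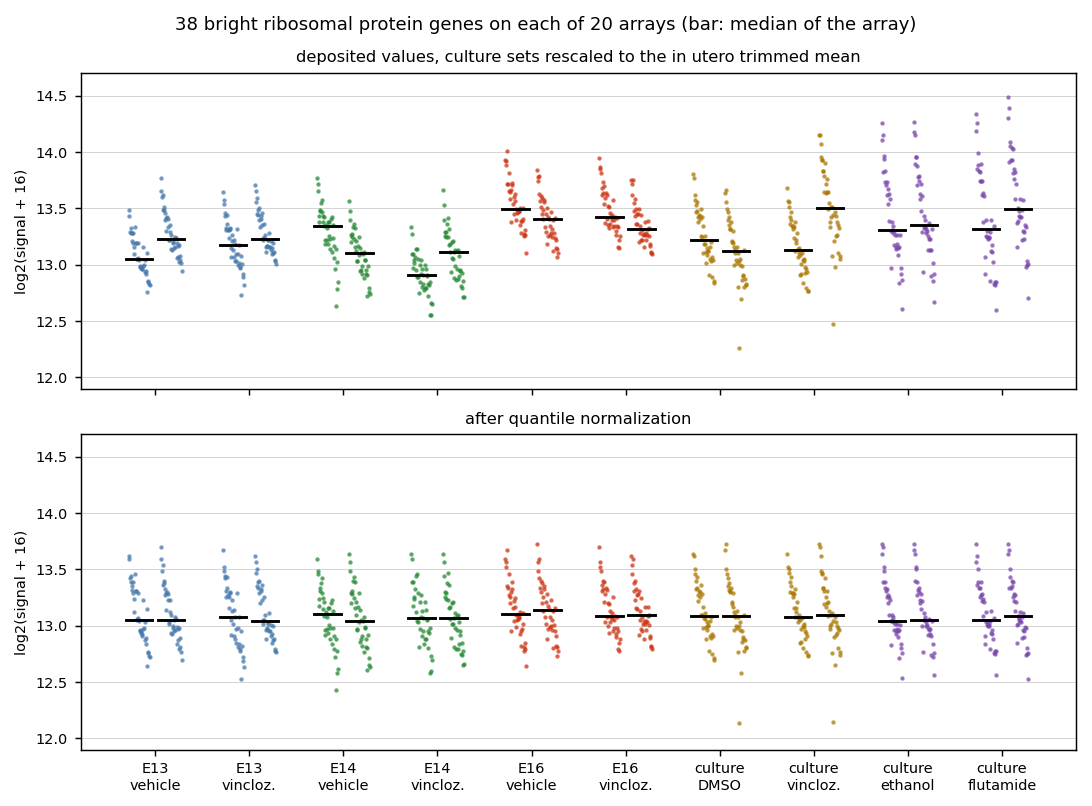
Log2(signal + 16) of the 38 bright ribosomal protein genes (points) on each of the 20 arrays, with the median of each array as a bar, 2 arrays per group, in the deposited values with the culture sets rescaled (top) and after quantile normalization (bottom). In the top panel the medians of the 4 E16 arrays lie between 13.32 and 13.50, and in the bottom panel all medians lie between 13.04 and 13.14.

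In vehicle testes the family stood higher at E16 than at E14, by a median of 0.29 on the log2 scale over the 47 genes, while the median over all 22526 tested probe sets was -0.105. Of the 47 genes 5 rose past the threshold (limma, adjusted p under 0.05) and none fell. All 5 were of the large subunit, as were 26 of the 38 bright genes. Over all tested probe sets 9.38% were called higher and 12.6% lower, so the share of members called higher was near the background. The 2 E16 arrays lay above the 2 E14 arrays for 34 of the 47 genes, against 24.2% of all probe sets, and below them for 1 gene, against 35.3%. All 38 bright genes had a difference above 0, from 0.01 for Rps15a to 0.57 for Rpl35a. The bright genes moved together from array to array, so such counts, here and below, are not independent observations. Between replicate arrays the median over the members itself had an SD of 0.125 on the deposited scale. After quantile normalization, which gives all arrays 1 distribution, the median over the members was 0.12, that over all probe sets -0.01, and 28 of the 38 bright genes were above 0. Limma then called 5 members higher and 1 lower, where 10% and 8.63% of all probe sets were, so the share called higher was again near the background.

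Rpl35a, a large-subunit protein that is mutated in some families with Diamond-Blackfan anaemia, was listed at 10659.9 and 9811.9 in E14 vehicle testes and at 16448.0 and 14124.3 at E16. At E13 it stood at 10266.3 and 12583.0, so both E16 arrays lay above the 4 younger ones. The rise from E14 to E16 was 1.49-fold, a log2 difference of 0.57 (SE 0.14, n = 2 and 2, limma adjusted p = 0.00936), and 0.39 after quantile normalization (limma adjusted p = 0.0014). Rpl21, also of the large subunit, read 6318.9 and 6755.5 at E14 and 9758.7 and 9048.8 at E16. Its groups did not overlap and its log2 difference was 0.52 (SE 0.14, n = 2 and 2, limma adjusted p = 0.0174), and 0.28 after quantile normalization (limma adjusted p = 0.0741).

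Rpl24, which sits at the contact between the subunits, read 7978.4 and 7685.1 at E14 and 10865.1 and 10889.7 at E16, with 8808.7 and 9240.1 at E13. Its E14 arrays were thus the lowest and its E16 arrays the highest of the 3 days, and the log2 difference from E14 to E16 was 0.47 (SE 0.13, n = 2 and 2, limma adjusted p = 0.0153) and 0.34 after quantile normalization (limma adjusted p = 0.0134). Rpl4, whose loop lines the tunnel through which the new chain leaves, went from 7056.2 and 6899.2 to 9810.3 and 9031.4, a difference of 0.43 (SE 0.12, limma adjusted p = 0.0173), and of 0.18 after quantile normalization (limma adjusted p = 0.0791). Rpl35, beside the exit of that tunnel, went from 9302.5 and 7876.4 to 11501.4 and 10940.7, a difference of 0.39 (SE 0.13, limma adjusted p = 0.0448), and of 0.24 after quantile normalization (limma adjusted p = 0.0216). Of these 5 genes, Rpl24 is the one without a pyrimidine run in the windows above.

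The calls rested on single arrays. Without the first E16 vehicle array 0 of the 5 kept an adjusted p under 0.05 (limma, 0.0607 to 0.166), without the second E14 vehicle array 1 did, without the first E14 array 2 did, and without the second E16 array 3 did, Rpl35a, Rpl4 and Rpl21. Rpl35 also lost its call without a filter on low signal (limma adjusted p = 0.0856) and when only in utero arrays were fitted (limma adjusted p = 0.0518). With vehicle and vinclozolin arrays averaged at each stage, 30 of the 47 genes were higher at E16 than at E14, where 18.3% of all probe sets were, and 0 were lower, where 23.2% were, with a median of 0.34. On that basis Rps6, the substrate of the S6 kinases, had a difference of 0.39 (SE 0.11, limma adjusted p = 0.00797), Rpl5 one of 0.40 (SE 0.11, limma adjusted p = 0.00881), and Rpl11 one of 0.31 (SE 0.09, limma adjusted p = 0.00861). With quantile normalization added, Rps6 had 0.15 (limma adjusted p = 0.033) and Rpl5 0.16 (limma adjusted p = 0.0158). Rpl11 was then not called, at 0.03 (limma adjusted p = 0.705). Rpl5 and Rpl11 carry the 5S rRNA into the ribosome and bind Mdm2. After quantile normalization the averaged comparison had 13 higher and 2 lower, against 18.9% and 19.4% of all probe sets, so the share called higher was above the background and the share called lower was below it.

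Rps15a, a small-subunit protein, did not move with the others. It read 11052.0 and 10246.8 in E14 vehicle testes and 10634.7 and 10807.9 at E16, with 10307.2 and 10972.6 at E13, so the 3 days overlapped. Its log2 difference from E14 to E16 was 0.01 (SE 0.13, 95% interval -0.26 to 0.28), and once all arrays had the same distribution it was lower at E16, by -0.28 against E14 (limma adjusted p = 0.0333) and by -0.34 against E13 (limma adjusted p = 0.0249). Rplp0, the stalk protein often used as a reference gene, had a difference of 0.06 from E14 to E16 (SE 0.14, 95% interval -0.24 to 0.35). With both treatments averaged the difference of Rplp0 was 0.24 (SE 0.1, limma adjusted p = 0.0606). Averaged and after quantile normalization it was -0.04 (limma adjusted p = 0.678), so its value depended on the arrays and the scale used.

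**Figure D2:**
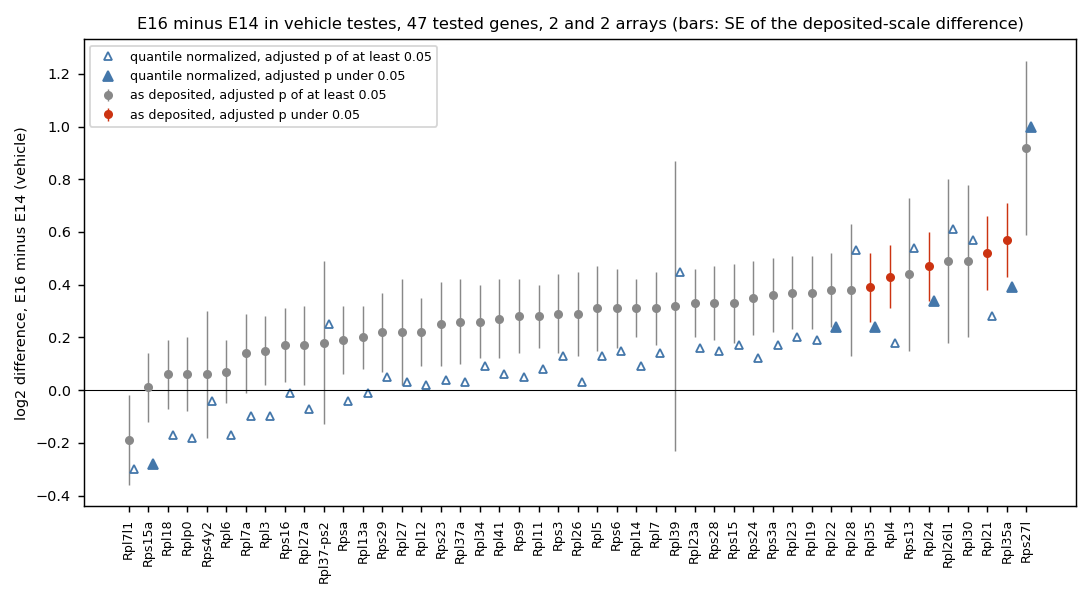
Log2 difference between E16 and E14 vehicle testes for the 47 tested genes, in order of the deposited-scale difference, with its SE as a bar (circles, n = 2 and 2 arrays) and after quantile normalization (triangles). Circles reach from -0.19 for Rpl7l1 to 0.92 for Rps27l, and filled coloured marks have an adjusted p under 0.05, 5 on the deposited scale and 6 after quantile normalization.

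Between E13 and E14 the median difference was 0.00 over the 47 genes and 0.072 over all probe sets. Limma called 0 of the 47 at an adjusted p under 0.05 and 0 had an unadjusted p under 0.05, where 1.26% of all probe sets were called higher and 1.67% lower. The 95% intervals of the 38 bright genes reached from -0.52 to 0.47. With both treatments averaged, Rpl24 (-0.26, SE 0.09, limma adjusted p = 0.0429) and Rpl4 (-0.25, SE 0.08, limma adjusted p = 0.04) were lower at E14 than at E13, against 12% of all probe sets, and 0 genes were higher, against 13.1%. With quantile normalization added, 1 gene was higher and 5 were lower, against 9.78% and 12.6%.

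Between E13 and E16 the median difference was also 0.29, against -0.043 over all probe sets, and all 38 bright genes were above 0. Limma called 0 of the 47 (background 4.39% higher and 4.15% lower), although 20 had an unadjusted p under 0.05 and for 36 the E16 arrays lay above the E13 arrays (22% of all probe sets). The smallest adjusted p of a bright gene was 0.0727. After quantile normalization the median was 0.05 and Rps15a, lower, was the single call (background 3.82% higher and 3.2% lower). With both treatments averaged 6 of the 47 were higher and 0 lower, where 9.45% and 9.3% of all probe sets were. Rpl35 was among them on both scales, at 0.33 as deposited (SE 0.09, limma adjusted p = 0.0197) and 0.18 after quantile normalization (limma adjusted p = 0.0153), where 8.66% of all probe sets were called higher and 8.53% lower.

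How much of the rise is seen therefore depended on the scale. On each array the 38 bright genes, and 71 or 72 probe sets of the family in all, lay in the top 1% of 311 probe sets, of which the family made 22.8% to 23.2%. Quantile normalization sets this top to the same values on every array, and a shift shared by the brightest probe sets is then reduced by construction. The 99th percentile of the probe sets outside the family was also higher at E16, at 3761.3 and 3688.9 on the vehicle arrays against 3234.2 and 3174.8 at E14 and 3245.4 and 3436.4 at E13. Several cell markers moved over the same days, in both directions. Leydig cell markers, 8 of 9 called higher from E14 to E16, summed to 1958.0 to 2050.4 in E14 vehicle testes and to 14602.3 to 22921.2 at E16. The 9 measured erythroid markers, 3 called higher, summed to 3975.0 to 14929.2 and 17230.1 to 32278.2. Muscle-like peritubular markers, 5 of 6 called higher, summed to 1211.6 to 1333.8 and 3552.1 to 4083.3. Mesonephric tubule markers, 5 of 10 called lower, summed to 4417.2 to 5558.1 and 2632.0 to 3254.9. Endothelial markers, 3 of 7 called lower, summed to 2569.1 to 2690.5 and 1924.7 to 2215.3. Of 9 Sertoli cell markers 2 were called higher and 1 lower, and 1 of 8 macrophage and 1 of 2 germ cell markers were called lower. The actin ratio was also higher on both E16 vehicle arrays than on both E14 ones. The part of these cells, and of RNA or cRNA length, in the shift of the ribosomal protein genes was not tested.

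Other genes that make and use ribosomes were described by lists from outside the family, to be read against the 9.38% of all probe sets called higher and the 12.6% called lower from E14 to E16. Of 73 mitochondrial ribosomal protein genes, which are encoded apart from the cytosolic ones, 25 rose and 1 fell from E14 to E16 (median 0.29), and after quantile normalization 20 rose and 2 fell (median 0.22). Mrpl1 rose by 1.44 (SE 0.17, limma adjusted p = 6.89e-05) and Mrpl33 by 1.29 (SE 0.17, limma adjusted p = 0.000212). Of 58 genes of ribosome assembly and the nucleolus, 15 rose and 3 fell (median 0.07), and after quantile normalization 12 rose and 2 fell (median 0.10). Gnl3, nucleostemin, was among them with a rise of 1.20 (SE 0.18, limma adjusted p = 0.000466). Of 14 elongation factors and other genes with TOP mRNAs, 4 rose and 0 fell (median 0.17), such as Naca, a chaperone subunit that meets new chains at the ribosome, at 0.42 (SE 0.11, limma adjusted p = 0.0153). After quantile normalization that list had 2 higher and 3 lower (median -0.05). Of 27 initiation factors, 6 rose and 3 fell (median 0.09), and after quantile normalization 5 rose and 4 fell (median -0.10). The 3 of smallest p were Eif4ebp2, which holds back the cap factor Eif4e and fell by 1.22 (SE 0.12, limma adjusted p = 2.07e-05), Eif2s2, a subunit of the factor that brings the first tRNA, which rose by 1.02 (SE 0.13, limma adjusted p = 0.000173), and Eif4g1, a scaffold of initiation, which fell by 0.90 (SE 0.17, limma adjusted p = 0.00229). The 36 probe sets of the family with several symbols had 7 higher, 0 lower and a median of 0.29, and after quantile normalization 9 higher, 0 lower and a median of 0.07.

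Of the 18 measured genes of the mTOR list, 1 rose and 2 fell from E14 to E16 (median -0.14), shares near or below those of all probe sets. Larp1, which binds the pyrimidine start and holds such mRNAs back when mTOR is off, fell by 0.93 from E14 to E16 (SE 0.15, limma adjusted p = 0.000852). Tsc2, an upstream inhibitor of mTOR, fell by 1.07 (SE 0.18, limma adjusted p = 0.00111), and Rps6kb1, an S6 kinase gene, rose by 0.80 (SE 0.21, limma adjusted p = 0.0146). From E13 to E14 Rps6kb1 had a difference of -0.77 (SE 0.21, limma adjusted p = 0.0631), so its rise started from a lower E14 value. Against E13, Mycn, a transcription factor that drives ribosome assembly, was lower at E16 by -1.39 (SE 0.17, limma adjusted p = 9.4e-05). These are mRNA levels, and neither the proteins nor their activity were measured.

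Vinclozolin was not followed by a called change in any member. Limma called 0 of the 47 at E13, at E14, at E16 and in the mean over the 3 stages, where 0% of all probe sets were called at E13, at E16 and in the mean, and 0.00444% higher and 0% lower at E14. At an unadjusted p under 0.05 there was 1 gene at E14 and 0 at the others. The median difference over the members was 0.05 at E13, -0.17 at E14 and -0.06 at E16, and 0.00 or close to it after quantile normalization (-0.01, 0.03 and -0.01).

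At E14 all 38 bright genes were lower with vinclozolin in value, and for 19 of the 47 the treated arrays lay below the vehicle arrays, against 13.1% of all probe sets. Rplp0, the one with the smallest p, read 10458.1 and 8412.3 in vehicle and 7620.2 and 7614.6 in vinclozolin testes. The treated pair lay below the vehicle pair, with a log2 difference of -0.30 (SE 0.14, 95% interval -0.59 to -0.01, unadjusted p = 0.0466 and limma adjusted p = 0.888), and -0.11 after quantile normalization. Rps6 read 9492.7 and 8352.3 in vehicle and 6879.4 and 7839.4 in vinclozolin testes, a difference of -0.28 (SE 0.15, limma adjusted p = 0.888). The array medians of the bright genes were 13.35 and 13.10 in vehicle and 12.91 and 13.12 in vinclozolin testes, so the first array of each group was the high one and the low one. After quantile normalization 24 of the 38 bright genes were above 0. Sertoli cell markers summed to 5550.5 and 15630.9 on the vehicle arrays and to 14119.6 and 17479.1 on the treated ones, and their part in the ribosomal values was not tested. In the mean over the stages the bright genes lay between -0.12 for Rps6 and 0.00, and their 95% intervals between -0.30 and 0.21.

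In culture limma called 0 of the 47 for vinclozolin and 0 for flutamide, with 0% of all probe sets called for either compound, 0 members at an unadjusted p under 0.05 for vinclozolin and 1 for flutamide. With vinclozolin all 38 bright genes were above 0 (median 0.15 over the members), but no bright gene had non-overlapping arrays (1 member higher and 3 lower, all dim, against 15.6% and 13.3% of all probe sets), and the array medians were 13.22 and 13.12 with DMSO and 13.13 and 13.50 with vinclozolin. The second vinclozolin array decided that value, since without it the median was -0.03. That array also had the highest actin ratio of its set, 3.90, whose part was not tested. With flutamide the median was 0.05, and for 14 genes the treated arrays lay above the ethanol arrays, against 21.1% of all probe sets. Rpl13a, which also takes part in silencing inflammatory mRNAs, read 4730.3 and 4886.4 with ethanol and 5496.1 and 6202.0 with flutamide. Its treated arrays were higher by 0.28 (SE 0.12, 95% interval 0.03 to 0.53, unadjusted p = 0.0291 and limma adjusted p = 1), and by 0.15 after quantile normalization.

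Doses and solvents differed between the compounds (50 µM in DMSO and 0.5 µM in ethanol), and the 95% intervals of the bright genes ran from -0.41 to 0.56 for vinclozolin and from -0.41 to 0.60 for flutamide. The tests of a difference between effects, E14 against E13, E16 against E14 and flutamide against vinclozolin, called 0 members each (limma, 0% of all probe sets, 0 members at an unadjusted p under 0.05). An adjusted p over the threshold does not show that treated and vehicle testes were alike.

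**Figure D3:**
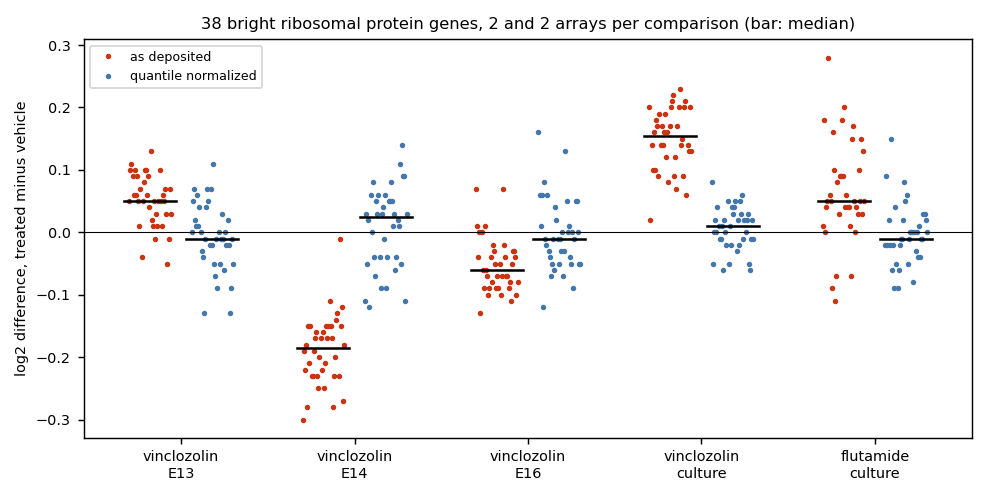
Log2 difference between treated and vehicle arrays for the 38 bright ribosomal protein genes (points), with their median as a bar, for 5 comparisons of 2 and 2 arrays, as deposited and after quantile normalization. The deposited-scale points for vinclozolin at E14 lie between -0.30 and -0.01, and after quantile normalization they lie between -0.12 and 0.14. None had an adjusted p under 0.05.

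After 3 days with DMSO, 2 genes stood higher and 1 lower than in E13 vehicle testes (limma, adjusted p under 0.05), where 10.2% of all probe sets were called higher and 10.3% lower, and the median over the members was 0.05 (0.021 over all probe sets). All 3 were dim members.

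Rpl39, a small protein of the exit tunnel, read 80.7 and 76.2 in E13 vehicle testes and, rescaled, 386.4 and 408.2 after culture. The groups were far apart, 4.38-fold, with a log2 difference of 2.13 (SE 0.55, n = 2 and 2, limma adjusted p = 0.0111). Within the in utero groups, however, the same gene read 81.3 and 316.6 in E13 vinclozolin testes, 237.3 and 66.6 in E14 vehicle testes and 277.1 and 95.1 in E16 vehicle testes, so replicate arrays differed nearly as widely as the groups. Without the second culture array the adjusted p was 0.0745, and without the second E13 vehicle array 0.0506. In the flutamide set it stood between 186.1 and 241.0, again rescaled. The gene has a single probe set, at a mean log2 of 7.44 against 12.68 or more for the bright genes. How well this dim probe set follows the Rpl39 mRNA was not tested.

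Rps27l, a paralog of Rps27 and a known target of p53, read 217.6 and 339.5 in E13 vehicle testes and, rescaled, 664.5 and 626.4 after culture with DMSO. The culture arrays lay above both, by 1.20 (SE 0.33, n = 2 and 2, limma adjusted p = 0.0154), and the adjusted p was 0.122 without the first E13 vehicle array, 0.067 without the first culture array and 0.0758 without the second. At E16 the pair of vehicle arrays read 643.0 and 233.9, 1 at the level of the cultures and 1 at that of E13. Its difference from E14 (186.9 and 211.7) to E16 was 0.92 (SE 0.33, limma adjusted p = 0.0529), and 1.00 after quantile normalization (limma adjusted p = 0.0339).

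Rps4y2, a copy of the small-subunit gene Rps4x placed on chromosome 4 in the annotation, was the member with the steadiest difference. On the 12 in utero arrays it read between 753.5 and 1558.6, and on the 8 culture arrays, rescaled, between 425.1 and 593.7, without overlap. The DMSO culture was lower than E13 by -0.90 (SE 0.24, limma adjusted p = 0.0131) and than E16 by -1.09 (SE 0.24, limma adjusted p = 0.00374). The ethanol culture was lower than E13 by -0.85 (SE 0.24, limma adjusted p = 0.0121) and than E16 by -1.05 (SE 0.24, limma adjusted p = 0.00265). The calls against E16 held without any 1 array and after quantile normalization, while those against E13 did not hold without the second E13 vehicle array (limma adjusted p = 0.0883 for DMSO and 0.0764 for ethanol), nor for DMSO without its first culture array (limma adjusted p = 0.114), nor for ethanol without its first or second culture array (limma adjusted p = 0.0656 and 0.0574). A probe can also bind the mRNA of near-identical copies, and whether this one measures Rps4y2 alone was not tested.

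**Figure D4:**
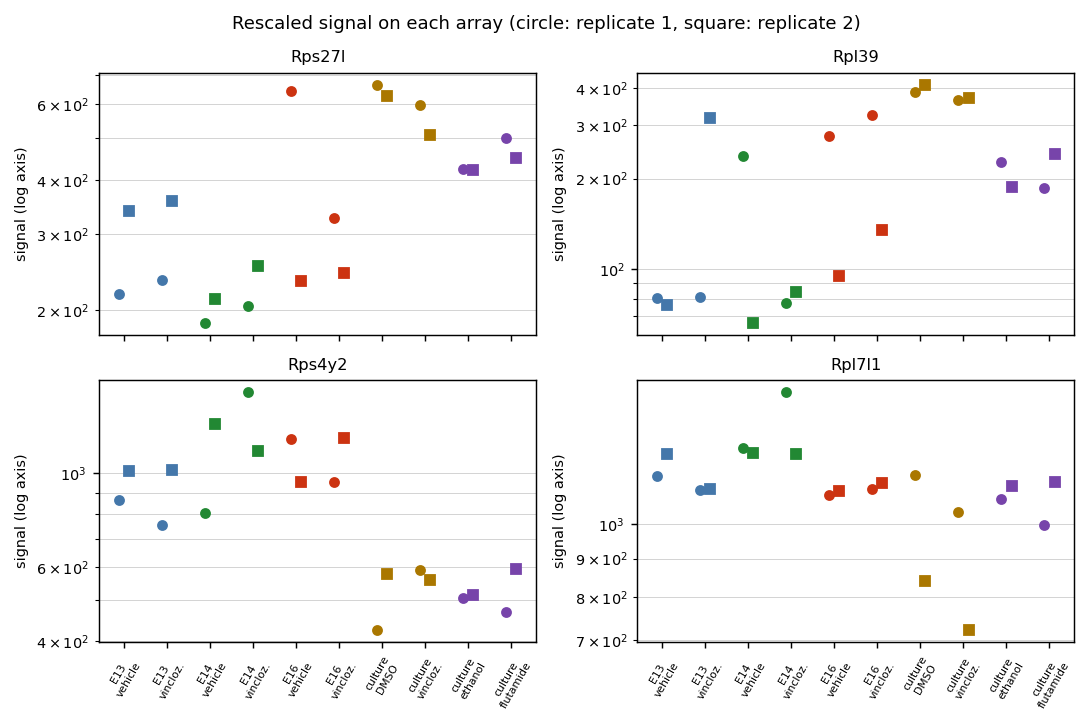
Signal of Rps27l, Rpl39, Rps4y2 and Rpl7l1 on each of the 20 arrays on a log axis, with the culture sets rescaled to the in utero trimmed mean (circles are replicate 1, squares replicate 2). Rps4y2 lies between 425.1 and 593.7 on the 8 culture arrays and at 753.5 or more in utero, while the pairs of Rps27l at E16 (643.0 and 233.9) and of Rpl39 at E14 (237.3 and 66.6) are wide apart.

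Against E16 vehicle testes, which have the same age since mating as an E13 gonad after 3 days, the DMSO culture had 0 genes higher and 6 lower, where 12% and 9.95% of all probe sets were, with a median of -0.26 (0.047 over all probe sets). For 39 of the 47 both culture arrays lay below both E16 arrays, against 28.5% of all probe sets. The 6 were Rps4y2, Rpl27, Rpl13a, Rps16, Rpsa and Rpl4. Rpsa and Rpl4 lost their call without the filter on low signal (limma adjusted p = 0.0624 and 0.0699), from the arrays of the 2 groups alone (0.0593 and 0.078), without rescaling (0.0546 and 0.0635) and without any 1 of the 4 arrays (limma, 0.0639 to 0.176 and 0.056 to 0.186). After quantile normalization the median was 0.00, and Rps4y2, Rpl27, Rpl13a and Rps16 were still lower, where 10.6% of all probe sets were called in each direction. Over the same comparison 20 of 73 mitochondrial ribosomal protein genes were lower and 0 higher, and erythroid markers summed to 377.5 to 517.9 in culture against 17230.1 to 32278.2 at E16.

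Rpl27 of the large subunit read 11412.0 and 11303.8 at E16 and, rescaled, 8704.1 and 4902.0 in the DMSO culture. The second culture array was the lower by far, and the difference of -0.80 (SE 0.20, limma adjusted p = 0.00933) became -0.38 without it (limma adjusted p = 0.195). With vinclozolin in culture it read 7697.9 and 5670.4, again with the second array lower. Rpl13a read 9951.6 and 10793.7 at E16 and 7687.7 and 6626.2 in the DMSO culture, a difference of -0.54 (SE 0.12, limma adjusted p = 0.00401). Rps16, near the peptide-carrying tRNA, read 11421.5 and 10399.1 at E16 and 8280.8 and 7118.8 in culture, a difference of -0.50 (SE 0.14, limma adjusted p = 0.0184). Both pairs were apart from E16, but without the second DMSO array their adjusted p was 0.0707 and 0.175, and 1 of the 6 calls, Rps4y2, was left.

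The ethanol culture, rescaled from a lower scale, had 12 genes higher and 1 lower than E13 vehicle testes, where 19% and 12.9% of all probe sets were, and a median of 0.26 (0.142 over all probe sets). The highest was Rpl26, known to bind p53 mRNA, at 10027.3 and 12397.0 in E13 vehicle testes and 18159.5 and 18159.1 after culture, 1.63-fold and 0.70 on the log2 scale (SE 0.16, limma adjusted p = 0.00372). Rps29 (0.63, SE 0.15) and Rps23 (0.60, SE 0.16), a protein of the decoding centre, followed. After quantile normalization, 4 were higher (Rpl21, Rpl26, Rps6 and Rpl27a) and 3 lower (Rpl11, Rpl24 and Rps4y2), where 13.3% and 15.9% of all probe sets were, and the median was 0.03. Without the first E13 vehicle array 2 of the 13 calls held. In the same comparison 34 of 73 mitochondrial ribosomal protein genes were lower and 0 higher.

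Against E16 the ethanol culture had 0 higher and 6 lower, where 24% and 14.6% of all probe sets were, with a median of -0.04 (0.191 over all probe sets). Rpl11 read 12647.6 and 11561.7 at E16 and, rescaled, 8015.4 and 7801.3 in culture, a fall by 0.61 (SE 0.12, limma adjusted p = 0.00124). Rpl24 read 10864.5 and 10889.2 at E16 and 7315.7 and 7602.4 in culture, a fall by 0.54 (SE 0.13, limma adjusted p = 0.00349). Both groups were apart, and both calls held without any 1 array and after quantile normalization, as did that of Rps4y2. Rpl14 (-0.47), Rpsa (-0.36), which also serves as a laminin-binding protein, and Rpl4 (-0.31) lost theirs after quantile normalization (limma adjusted p = 0.106, 0.305 and 0.669). On that scale 1 member was higher and 5 were lower, where 17.3% and 18.6% of all probe sets were.

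Because the bright genes moved together from array to array, each was also read as its departure from the bright median of its own array. Multiplying an array by a factor changes this little, but quantile normalization can change it, and departures were not counted on that scale. There Rps29, above in the flutamide set as rescaled, read 13.73 on all 4 of its arrays and 13.59 to 13.73 in utero. Rpl11 on that scale read 12.77 to 12.85 in the flutamide set and 13.08 to 13.29 in utero. Over the 12 in utero arrays the SD of a gene's departure had a median of 0.067 on the log2 scale, against 0.188 for the level itself. The vinclozolin culture set lay outside the whole in utero range on all 4 arrays for 9 of the 38 genes. Those below were Rpl27, Rpl13a, Rps16 and Rpsa, and those above Rps3a, Rpl7a, Rpl27a, Rpl34 and Rpl5. The flutamide set lay outside for 18 genes, 12 above and 6 below. No such count was made over probe sets outside the family, so neither number can be set against a background share. Rpl11 departed by -0.02 to 0.15 before culture, by 0.01 to 0.15 in the first culture set and by -0.42 to -0.33 in the one with flutamide. Rpl26 departed by 0.19 to 0.44, by 0.40 to 0.57 and by 0.80 to 0.94. The 5 genes above in the vinclozolin set were also above in the flutamide set, and of the 4 below only Rpsa was below in both. The flutamide set had the actin ratios of 9.08 to 11.06, and the part of RNA or cRNA length in these departures was not tested.

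**Figure D5:**
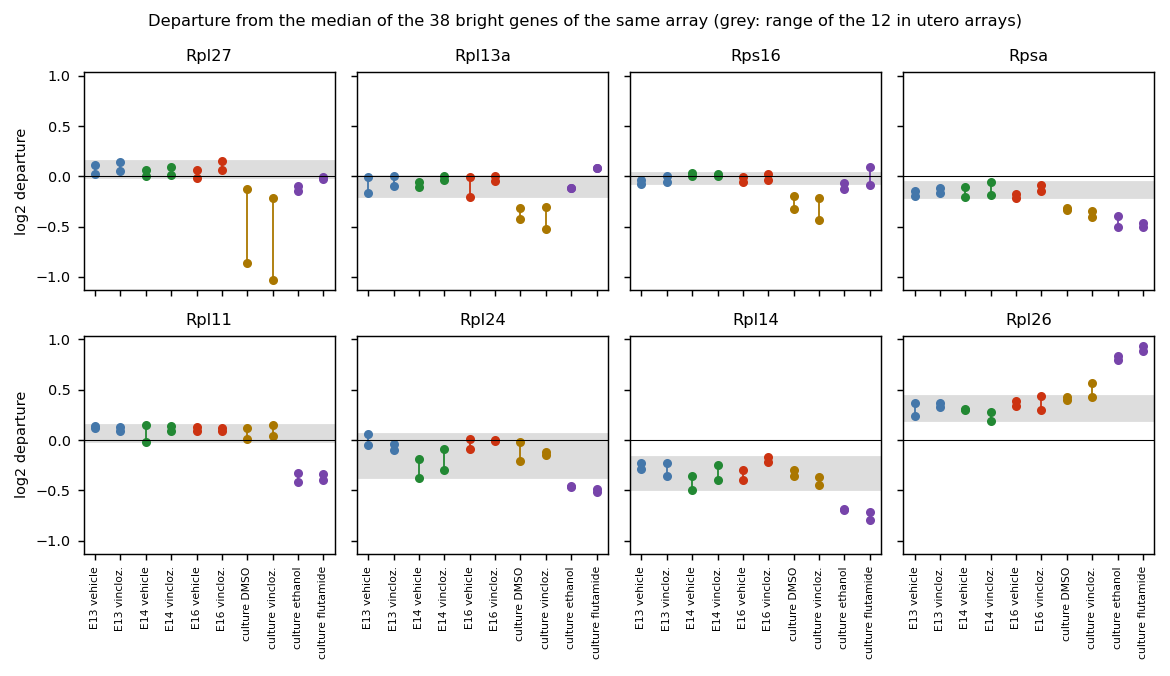
Departure of 8 genes from the median of the 38 bright ribosomal protein genes of the same array, on the log2 scale, as the lower and higher of the 2 arrays of each of the 10 groups, with the range of the 12 in utero arrays in grey. Rpl27, Rpl13a, Rps16 and Rpsa lie under the grey range in the DMSO and vinclozolin cultures, and Rpsa, Rpl11, Rpl24 and Rpl14 in the ethanol and flutamide cultures, where Rpl26 lies above it.

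Where a gene had other probe sets, they did not always give the same value. The other probe set of Rps24 rose by 0.71 from E14 to E16 (limma adjusted p = 0.014) and that of Rpl14 by 0.94 (limma adjusted p = 0.0388), against 0.35 and 0.31 for the brighter ones, which were not called. Of the other probe sets of Rpsa 1 rose by 0.58 (limma adjusted p = 0.0158) and the other had a difference of 0.29, against 0.19. The dimmer probe set of Rpl7 was higher in the DMSO culture than at E13, by 1.39 (limma adjusted p = 0.0455), where the brighter one had -0.01. The dimmer one of Rpl7l1, a nucleolar paralog of Rpl7, was lower in the ethanol culture than at E13, by -0.82 (limma adjusted p = 0.00276), where the brighter one had -0.12. For the ethanol culture minus E16, the other probe set of Rpl14 had 0.63 (limma adjusted p = 0.123), where the brighter one had -0.47. Those of Rpsa had -0.52 and -0.32 there (limma adjusted p = 0.0161 and 0.0764). For the DMSO culture minus E16 they had -0.81 and -0.49 (limma adjusted p = 0.00194 and 0.0196), where the brightest had -0.40.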

How the data were processed

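Each deposited value is a linear signal intensity per probe set. Per the submitters' processing notes the authors used MAS5, and GCOS as well for the cultured testes, with versions not given in the sources used here. Here 57 control probe sets were left out, 16 was added and log2 taken, and the 22526 of 31042 probe sets that reached the 40th percentile of their array on at least 2 arrays were tested. All 20 arrays entered 1 model of group means (limma 3.58.1, R 4.3.3) with residual degrees of freedom 10, prior 6.76 and trended variances, and with two-sided p-values adjusted by Benjamini-Hochberg over all tested probe sets at a threshold of 0.05. The fit was tested on simulated data. Cultures were compared with uncultured testes after every array was rescaled to the trimmed mean (2% left out at each end) of the first in utero array. The number of arrays limits the precision: the median standard error of a difference was 0.24. Intervals are at a confidence level of 95%. Members and lists were chosen with earlier results of these data known. Named in a comparison were up to 10 called members per direction, or the 3 of smallest p in each where none was called, a set of paralogs and members with other roles (Rplp0, Rpsa, Rps6, Rpl5, Rpl11, Rpl22, Rps27l, Rpl3, Rpl39, Rpl7, Rpl7l1 and others), and up to 3 genes of each other list by p; Rps15a and the genes of the departure counts were named after their values were seen. The replicate numbers were checked for pairing by correlating the deviations of same-numbered arrays of a treatment and its vehicle. The correlation was 0.6 at E13, so same-numbered arrays there shared part of their variation. Amh, for example, read 106.0 and 372.4 on the first E13 arrays and 1484.7 and 1102.2 on the second. It was -0.05 at E14, -0.11 at E16, 0.12 in the vinclozolin and 0 in the flutamide culture for the correlation. The labels do not state a pairing, and the main comparisons have no block. As alternatives the comparisons were recomputed after quantile normalization, at pseudocounts of 1 and 64, without the filter, from the arrays of 1 experiment, with other probe sets per gene, with and without rescaling, with a replicate block, and without single arrays or the first array of both E13 groups; averaging both treatments was used for the stages, and its quantile form and a crossed block were added after the data were seen. No image file or detection call was analysed here.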

Additional observations from a re-analysis of the deposited data

Results flagged for a closer look

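In 3 named members the 2 treated arrays lay on one side of the 2 vehicle arrays in one experiment and on the other side in another. Such separation was common. With vinclozolin in culture it was seen in 15.6% of all probe sets with the treated arrays higher and in 13.3% with them lower. The share of all probe sets that changed sides between experiments was not counted, so the 3 members have no background to be read against. Rpl39 had a log2 difference of 0.93 with vinclozolin at E13 and of -0.11 with vinclozolin in culture. Rpl7l1 had -0.11 with vinclozolin at E13 and 0.03 at E16. Rps27l had -0.22 with vinclozolin and 0.15 with flutamide in culture. For Rpl39 and Rpl7l1 the difference between these effects was not tested. For Rps27l it was 0.37 (SE 0.46, n = 2 arrays in each of 4 groups, limma adjusted p = 1). None of the 6 single effects passed the threshold, and their adjusted p-values (limma) were 1 for 5 of them and 0.983 for Rpl7l1 at E16.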

How the results depend on the processing

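Quantile normalization moved the median over the members to 0.12 for E16 minus E14, 0.05 for E16 minus E13 (1 called), 0.03 for vinclozolin at E14, 0.01 for vinclozolin in culture, 0.00 for the DMSO culture minus E16 and 0.03 for the ethanol culture minus E13 (7 called), and that of the effect at E14 minus E13 to 0.04 and at E16 minus E14 to -0.02. With both treatments averaged 2, 30 and 6 members were called for E14 minus E13, E16 minus E14 and E16 minus E13, and with quantile normalization as well 6, 15 (median 0.11) and 2 (median 0.05). With the 2 groups' arrays alone 14 were called for the ethanol culture minus E16. Without rescaling, which leaves the flutamide set at its lower scale, 38 were called for the ethanol culture minus E13 (median -0.71) and 43 for that minus E16 (median -0.98). In the first of these the direction turned for Rpl26 (-0.27), Rps29 (-0.34), Rps23 (-0.38), Rpl37a (-0.38), Rps3a (-0.39), Rpl27a (-0.41), Rpl7a (-0.41), Rps6 (-0.43), Rpl34 (-0.51), Rpl21 (-0.57), Rplp0 (-0.88), Rpl22 (-0.77), Rpl3 (-0.60), Rpl5 (-0.58) and Rpl7 (-0.78), and in the second for Rps6 (-0.73), Rpl3 (-0.85), Rpl7l1 (-0.95), Rps27l (-0.81) and Rpl5 (-0.87). Rpl3 in the ethanol culture minus E13 turned to -0.05 after quantile normalization. The cause of the other changes was not tested.

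Without 1 array, the members called ranged from 0 to 4 for E16 minus E14, from 0 to 1 for E16 minus E13, from 1 to 2 for the DMSO culture minus E13, from 1 to 6 for the DMSO culture minus E16 and from 2 to 11 for the ethanol culture minus E13. The median ranged from -0.03 to 0.34 for vinclozolin in culture and from -0.28 to 0.10 for the flutamide effect minus the vinclozolin effect. The remaining array was then assumed to vary like the other groups. Of 1723 single-gene values under alternatives that kept every array, 1645 kept their direction and side of the threshold, 28 were no longer called, 29 became called and 21 turned. Of 1319 without an array, 1245 kept both, 69 were no longer called and 5 became called.

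With the replicate number as a block, 4 members in place of 5 were called for E16 minus E14 (Rpl35 had an adjusted p of 0.0537, limma), and the count of members stayed at 0 in the other comparisons of stages and treatments. Cultured and uncultured testes were not compared with the block. The numbers are not stated to pair arrays. At E16 the deviations correlated by -0.11, and with the pairing crossed 0 members were called for vinclozolin.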

Other observations

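The control probe set for the 5S ribosomal RNA, which is no member and was not tested, stood higher at E16, with no rise from E13 to E14. It read 429.3 and 867.2 in E13 vehicle and 477.1 and 659.8 in E13 vinclozolin testes, 434.2, 371.2, 378.8 and 451.8 on the 4 E14 arrays, and 2878.1, 2426.3, 2089.4 and 3125.6 on the 4 E16 arrays. The E16 arrays thus lay above all 8 younger ones. In the cultures it read 937.3 to 1589.9 in the vinclozolin set and, on its lower scale, 402.4 to 462.3 in the flutamide set. The 5S RNA is made by RNA polymerase III, carries no poly(A) tail and joins the ribosome together with Rpl5 and Rpl11. The members' mRNA is primed through poly(A), so how this probe set gains its signal was not tested.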
